A study of Mus musculus with 6 samples.

Results

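The genes described here are the clustered histone genes of the mouse, read from polyadenylated RNA of BCR-ABL transformed B cell precursors. They were chosen by symbol: all genes whose name begins with Hist1h, Hist2h, Hist3h or Hist4h, with the RefSeq rows of a gene added together, and among these the genes with an RPKM (reads scaled to transcript length and to the reads of the library) of at least 1 in at least 2 of the 6 libraries. The table holds 67 such symbols among its 22099 genes, and 46 of them reached that level. These 46 are 5 genes for linker histone H1, 9 for H2A, 13 for H2B, 8 for H3 and 11 for H4. By cluster they are 38 Hist1 genes, 5 Hist2 genes, 2 Hist3 genes and 1 Hist4 gene.

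The libraries came from whole bone marrow of C57BL/6 mice into which a retrovirus with the p185 form of BCR-ABL and a YFP marker (BCR-ABL-p185-IRES-YFP) was introduced at day 0, and which was then grown in vitro for 14 days. The cells are labelled BCR-ABL+ transformed proB-ALL, a model of acute lymphoblastic leukaemia of pro-B cells. All 6 cultures carry the oncogene, and there is no untransduced group. The 3 groups, with 2 biological replicates each, were wild type (wt), Ikaros_ZnF1-/- (here the ZnF1 mutant) and Ikaros_ZnF4-/- (the ZnF4 mutant), which are homozygous for the loss of the first or the fourth zinc finger of Ikaros, a transcription factor of lymphoid cells. The labels do not say that YFP-positive cells were sorted, nor whether a culture was 1 clone or came from several mice.

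Histones package DNA: H2A, H2B, H3 and H4 form the core of the nucleosome, and H1 binds the linker DNA between nucleosomes. Most of their genes lie in clusters, have no introns and are transcribed in S phase, when new DNA has to be packaged. Their messages are the exception among animal messages: they usually end in a conserved stem-loop instead of a poly(A) tail. The stem-loop is bound by the protein Slbp, and the message is cut after the stem-loop by a complex that contains the U7 RNA. A polyadenylated message is nevertheless made from some clustered histone genes, mainly in differentiated or resting cells. RPKM does not distinguish the 2 forms of message.

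The stem-loop is shown first because it sets these messages apart from other messages. It also tells which GENCODE M21 transcripts extend past the normal end of the message. These transcripts are not the RefSeq models over which RPKM was measured, and 23 of the 46 RefSeq models hold the coding part alone. For Hist2h4 the RefSeq model has 349 bases and the GENCODE transcript 1630. In 27 of the 46 genes the GENCODE M21 transcript (build GRCm38) holds the letters GGNNCTTTTNNGNGCC after the stop codon, 21 to 54 bases after it (median 31). The same letters on the same strand, at any place in the transcript and not only after the stop codon, were found in 0.117% of 58797 protein-coding transcripts. All 27 are among the 33 members whose transcript has at least 60 bases after the stop codon. The 6 of the 33 without these letters were Hist1h2bc, Hist1h3g, Hist1h4a, Hist1h4b, Hist1h4j and Hist2h2be. In the other 13 the transcript ends sooner, so that the missing letters say nothing about those genes. The 16 bases were of 5 kinds, of which 1 was shared by 16 genes. Examples of each kind follow, in DNA letters, 5′ to 3′, with the stem-loop in capitals and 5 bases on either side.
Hist1h2ab: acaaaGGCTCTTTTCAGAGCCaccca
Hist1h1e: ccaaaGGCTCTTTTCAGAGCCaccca
Hist1h1c: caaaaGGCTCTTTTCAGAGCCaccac
Hist1h4d: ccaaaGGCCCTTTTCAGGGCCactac
Hist1h2bk: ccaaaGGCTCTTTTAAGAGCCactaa
Hist2h4: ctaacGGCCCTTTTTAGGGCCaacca
Hist2h2ac: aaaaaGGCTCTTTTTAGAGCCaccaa
The kind shown for Hist1h4d was found in 5 genes, all of type H4.

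A poly(A) signal at the very end of the GENCODE transcript is the other feature that bears on poly(A)-selected RNA. The letters AATAAA or ATTAAA lay within the last 40 bases of the transcript in 12 members, against 48.7% of all protein-coding transcripts. Of these 12, 9 also had the stem-loop, upstream of the signal. Signals are shown in capitals for members that recur in the results.
Hist1h1c: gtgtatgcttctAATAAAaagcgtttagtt
Hist1h4i: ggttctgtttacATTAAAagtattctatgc
Hist2h2be: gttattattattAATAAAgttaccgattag
Hist3h2a: aggtatatgcccAATAAAataagagtacgt
Hist2h4: tcgtatacataaAATAAAatcttaaaaaca
In the Hist2h2be transcript no stem-loop letters were found, although it has 2192 bases after the stop codon. The transcript of Hist1h2bc, with 742 bases after the stop codon, held neither the stem-loop letters nor a signal in its last 40 bases.

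Of the whole table, 11345 genes reached the level needed for a test, and 10582 to 11119 genes per library had at least 1 RPKM. The file gives RPKM to 1 decimal and no counts, so the depth is unknown and no counting interval can be given. Ikzf1, which encodes Ikaros, was read at 89.2 and 85.9 RPKM in wt (replicate 1 first, here and below), 101.5 and 116.7 in the ZnF1 mutant and 188.2 and 170.2 in the ZnF4 mutant. A value for the whole gene does not check the loss of 1 zinc finger. The 12 marker genes of pro-B and pre-B cells were all read and summed to between 2438.7 and 3680.9 RPKM per library. The 11 myeloid marker genes in the table summed to 331.7 and 395.3 in wt, 986 and 1067.6 in the ZnF1 mutant and 343.2 and 384.7 in the ZnF4 mutant. The 11 granulocyte markers stood at 535.8 in wt replicate 1 and 1648.9 in ZnF1 mutant replicate 2, and between 1.2 and 54.3 in the other libraries. Of 11 T and NK cell markers, Cd3e, Cd3g, Cd8a and Ncr1 were at 0 in all libraries, and the sum lay between 0.6 and 7.9. In such bulk samples, fewer cells of a type and less RNA per cell cannot be told apart.

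Near-identical coding sequences limit how far a value can be assigned to 1 histone gene. The sources used here do not give how reads matching several copies were counted, so levels of single members are uncertain. Of the 21 symbols below the level, 7 were listed at 0 in all 6 libraries: Hist1h2ba, Hist1h2ao, Hist1h2ap, Hist1h2bq, Hist2h2aa1, Hist2h2aa2 and Hist2h3c1. Just inside the level lay Hist1h3a with a mean of 0.717 RPKM over the 6 libraries, Hist1h4a with 0.8 and Hist1h2bm with 0.867. Just outside it lay Hist1h3e with a mean of 0.65 and Hist1h2ac with 0.55. Hist1h2be, which has 2 rows, passed only because they were added.

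Most of the described genes were read at low levels. On the RPKM scale, which is per length, 4 members had a mean of at least 10, 9 had a mean from 5 to 10, 30 from 1 to 5 and 3 below 1, with a median of 2.86. Together the 46 genes summed to 216.6 and 248.4 RPKM in wt, 159.9 and 209.5 in the ZnF1 mutant and 223.4 and 293.6 in the ZnF4 mutant. Both ZnF1 mutant libraries lay below both wt libraries, and the ZnF4 mutant libraries overlapped wt. As a share of all RPKM in a library this was 0.0643% and 0.0865% in wt, 0.0462% and 0.0719% in the ZnF1 mutant and 0.067% and 0.0976% in the ZnF4 mutant, where wt and the ZnF1 mutant overlapped. With 2 libraries in a group, an exact permutation test of such a sum cannot give a p below 0.33, and none was run.

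The 2 highest members were H4 genes. Hist2h4 was read at 23 and 40.7 RPKM in wt, 14.7 and 45.6 in the ZnF1 mutant and 24.7 and 55.9 in the ZnF4 mutant. Hist1h4d was read at 17.2 and 25.2, 13.4 and 20.7, and 15.5 and 30.6 RPKM in the same order. In each group replicate 2 was the higher library for both, and together they made up 17.6% to 31.6% of the sum over the 46 genes. Of the other H4 genes, Hist4h4, alone in its cluster on chromosome 6, was read at 4.1 and 5 RPKM in wt, 2.9 and 4 in the ZnF1 mutant and 4.2 and 6.6 in the ZnF4 mutant. The mutant groups did not overlap each other for Hist4h4 (highest ZnF1 mutant library 4, lowest ZnF4 mutant library 4.2).

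Among linker histone genes Hist1h1e and Hist1h1a had the highest means. Hist1h1e stood at 7.7 and 20 RPKM in wt, 3.8 and 15.8 in the ZnF1 mutant and 8.8 and 18 in the ZnF4 mutant. Hist1h1a stood at 7.8 and 12, 3.1 and 9.9, and 8.3 and 11.6. For both genes replicate 2 was the higher library in each group, and all groups overlapped. Hist1h1c, the third H1 gene by level, varied far less: 7.5 and 7.2 RPKM in wt, 8.9 and 9.6 in the ZnF1 mutant and 8.4 and 6.9 in the ZnF4 mutant. Both of its ZnF1 mutant libraries were above all others.

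The leading H2A genes were Hist1h2af and Hist1h2ak. Hist1h2af was read at 11.1 and 7.8 RPKM in wt, 9.9 and 3.3 in the ZnF1 mutant and 9.8 and 9.1 in the ZnF4 mutant, so that its lowest library was ZnF1 mutant replicate 2. Hist1h2ak was read at 6.9 and 9.4, 5.3 and 6, and 8.3 and 10.3 RPKM, with both ZnF1 mutant libraries below the other 4. Of type H2B, Hist1h2bc had the highest mean, followed by Hist2h2bb with 5.6 and 12.3 RPKM in wt, 2.7 and 9.4 in the ZnF1 mutant and 7.4 and 13.5 in the ZnF4 mutant. Genes of type H3 had the lowest sum in every library. The highest of them was Hist1h3i, at 4.4 and 4.2, 2.6 and 3.1, and 4 and 4.3 RPKM, followed by Hist1h3g at 2.8 and 3.8, 1.9 and 4.1, and 3.5 and 4.6. Hist1h3g overlapped between groups and Hist1h3i did not overlap between the ZnF1 mutant and either other group. The 2 Hist3 genes on chromosome 11, Hist3h2a and Hist3h2ba, had means of 3.43 and 1.2 RPKM. Hist3h2ba, an H2B gene, was read at 1.7 and 0.8 RPKM in wt, 1.4 and 0.5 in the ZnF1 mutant and 2.2 and 0.6 in the ZnF4 mutant, higher in replicate 1 of each group and overlapping between all groups.

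**Figure D1:**
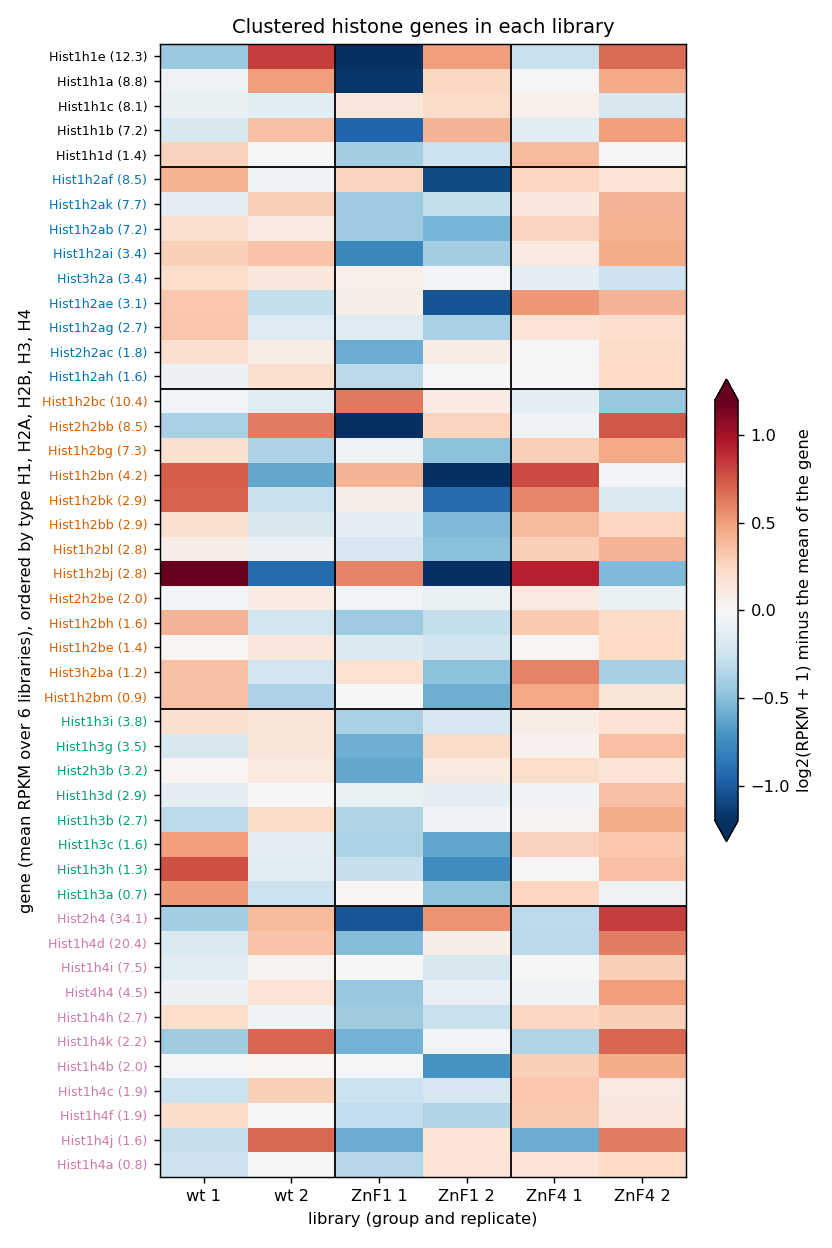
Each row is 1 of the 46 described histone genes, ordered by type and then by mean RPKM (in parentheses), and each column is 1 library. Colour gives log2(RPKM + 1) minus the mean of the gene, with red above and blue below it. Columns of the ZnF1 mutant are mostly blue, and Hist1h2bj, Hist1h2bn, Hist1h1e and Hist2h4 differ more between replicates than between groups.

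Replicates of the same number deviated together. In 15 of 46 members replicate 2 was above replicate 1 in all 3 groups (32.6%, beside 26.9% of all genes tested). In 12 it was below in all 3 (26.1%, beside 44.3% of all genes). Such a fixed direction is thus no trait of the members alone. The histone types were not alike in this. All 3 of the H1 genes and 6 of the 7 H4 genes with a fixed direction were higher in replicate 2, whereas 7 of the 8 H2B genes with one were lower. The most extreme was Hist1h2bj, an H2B gene, read at 6.3 and 0.6 RPKM in wt, 3.6 and 0.2 in the ZnF1 mutant and 4.8 and 1.1 in the ZnF4 mutant.

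Summed by type, H4 stood at 62.5 and 94.9 RPKM in wt, 46.8 and 86.8 in the ZnF1 mutant and 65.8 and 120.6 in the ZnF4 mutant. H1 stood at 30.7 and 49.5, 19.6 and 45.6, and 33.7 and 47.9. For these 2 types every replicate 2 library exceeded every replicate 1 library, whatever its group. H2A, at 45.5 and 41.4 RPKM in wt, 32.5 and 25.4 in the ZnF1 mutant and 44.4 and 48.2 in the ZnF4 mutant, had both ZnF1 mutant libraries below the rest, as did H3 at 21.5 and 20.3, 13.1 and 16.9, and 21 and 24.9. H2B, at 56.4 and 42.3, 47.9 and 34.8, and 58.5 and 52, overlapped between wt and the ZnF1 mutant. Over all genes tested, the difference between replicates 2 and 1 went with the GC content of the longest transcript (Pearson r = -0.642 across 10220 genes, which share the 6 libraries and are not independent). Across the 46 members r was -0.156, and their median GC content was 56.8% against 49.7% for all genes. The labels do not say what the replicate number stands for.

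**Figure D2:**
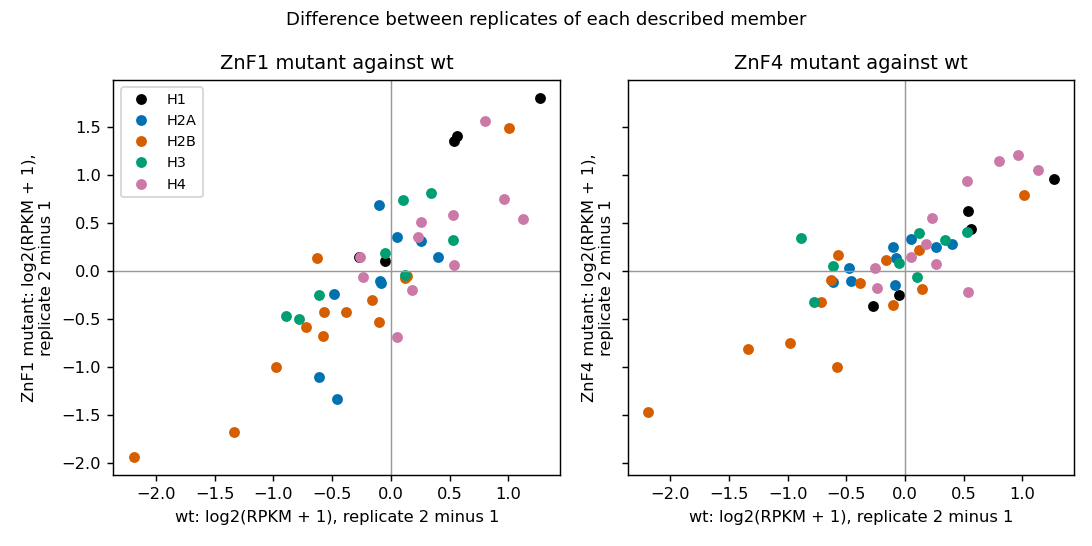
Each point is 1 of the 46 described genes, coloured by histone type. The horizontal axis is log2(RPKM + 1) in wt replicate 2 minus replicate 1, and the vertical axis is the same difference in the ZnF1 mutant (left) or the ZnF4 mutant (right). Most points lie in the lower left and upper right quadrants, with H2B genes mainly in the former and H1 and H4 genes mainly in the latter.

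Because of this pattern each comparison is given from 2 fits: limma's moderated test on log2(RPKM + 1) with 3 group means, and the same test with the replicate number as a block, which compares libraries of the same number. Both adjust p-values by the Benjamini-Hochberg method over all 11345 genes, with a threshold of 0.05. Each fold change given below is a difference of log2(RPKM + 1), a scale on which changes of low genes appear smaller than they are. The 3 comparisons share libraries, since each group serves in 2 of them.

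In the ZnF1 mutant 43 of the 46 histone genes were lower than in wt (52.3% of all genes) and 3 were higher (47.6%). The median log2 fold change was -0.36, in a range from -0.91 to 0.44, beside a median of -0.01 over all genes tested. Of these directions some rest on single libraries: leaving out wt replicate 2 gave 12 higher and 34 lower, and leaving out wt replicate 1 gave 7 and 38. With ZnF1 mutant replicate 1 or 2 left out, the counts were 11 and 35 or 10 and 36. By type the median was -0.48 for H1, -0.45 for H2A, -0.32 for H2B, -0.34 for H3 and -0.33 for H4. The unblocked test called 0 members (0% of all genes: it called 0 of 11345), and the lowest adjusted p of a member was 0.15. At an unadjusted p under 0.05 it had 6 members, or 13%, beside 11.3% of all genes. With the replicate block 5 members fell (2.88% of all genes were called lower and 10.4% higher), and no member rose.

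The 5 that fell with the block were 3 H2A genes, 1 H2B gene and 1 H3 gene, all in the Hist1 cluster on chromosome 13. Hist1h2ai was read at 4.2 and 4.4 RPKM in wt and 1.5 and 2.2 in the ZnF1 mutant, a log2 fold change of -0.91 (SE 0.11, adjusted p 0.014) with the block and -0.91 (SE 0.20, adjusted p 0.15) without. Each SE given after this is from the unblocked fit, whichever p it stands beside. Hist1h2ab was read at 8.1 and 7.6 in wt and 4.9 and 4.4 in the ZnF1 mutant, a log2 fold change of -0.65 (SE 0.15, adjusted p 0.020 with the block and 0.16 without). For both genes each ZnF1 mutant library was below each wt library. Hist1h2bk, an H2B gene, was read at 4.9 and 2 in wt and 2.8 and 0.9 in the ZnF1 mutant (-0.65, adjusted p 0.024 with the block and 0.97 without). Its groups overlapped, and it was lower in each replicate. Its log2 fold change was -0.16 with wt replicate 1 left out and -1.13 with wt replicate 2 left out, and -1.15 and -0.15 with replicates 1 and 2 of the ZnF1 mutant left out. Hist1h2ak had a log2 fold change of -0.45 and Hist1h3i of -0.46, with adjusted p of 0.039 and 0.044 with the block and 0.58 and 0.31 without. Without wt replicate 2 the value of Hist1h2ak was -0.25. Hist1h2ak and Hist1h3i, whose values are given above, did not overlap between these groups.

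Among members not called here, the lowest fold changes were those of Hist1h3h and Hist1h3c, both H3 genes. Hist1h3h was read at 2.7 and 1 RPKM in wt, 0.8 and 0.3 in the ZnF1 mutant and 1.2 and 1.8 in the ZnF4 mutant, and Hist1h3c at 2.5 and 1.3, 0.9 and 0.6, and 2 and 2.1. Both had all ZnF1 mutant libraries below all wt libraries, with log2 fold changes of -0.83 and -0.70 and adjusted p of 0.14 and 0.066 with the block. In all, 14 members had groups that did not overlap in the downward direction (12.7% of all genes), and 33 members were lower in replicate 1 and in replicate 2 (35.1% of all genes).

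The 3 members with a positive fold change were Hist1h2bc, Hist1h1c and Hist1h4a, and none was called. Hist1h2bc, an H2B gene, was read at 9.9 and 9.2 RPKM in wt, 16.2 and 10.9 in the ZnF1 mutant and 9.3 and 7.1 in the ZnF4 mutant. Its log2 fold change in the ZnF1 mutant was 0.44 (SE 0.24, adjusted p 0.078 with the block and 0.71 without), and that of Hist1h1c was 0.30 (SE 0.16, 0.14 and 0.72). These 2 genes were the members whose groups did not overlap in the upward direction (2 of 46, beside 18.3% of all genes), and also those higher in both replicates (33.5% of all genes). Hist1h4a, at 0.5 and 0.8, 0.4 and 1, and 1 and 1.1 RPKM, had a log2 fold change of 0.03, and wt and the ZnF1 mutant overlapped.

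Markers of other cells moved with this comparison. All 11 myeloid markers were higher in the ZnF1 mutant than in wt, with a median log2 fold change of 1.44, and 10 of them rose with the block. The 12 stromal and endothelial markers summed to 92 and 100.7 RPKM in wt, 360.5 and 196.4 in the ZnF1 mutant and 96.4 and 86.9 in the ZnF4 mutant, with Lum at 0 in all libraries. The 9 of them that were tested had a median log2 fold change of 1.29, and 8 rose with the block. Of 9 tested granulocyte markers 8 were higher, with none called. The direction differed between replicates: the granulocyte markers summed to 535.8 and 1.2 RPKM in wt and to 3.5 and 1648.9 in the ZnF1 mutant. Of the 12 pro-B and pre-B markers 10 were higher and 2 lower, with a median log2 fold change of 0.19, and 4 rose and 0 fell with the block. The part of any of these cells in the lower histone values was not tested.

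**Figure D3:**
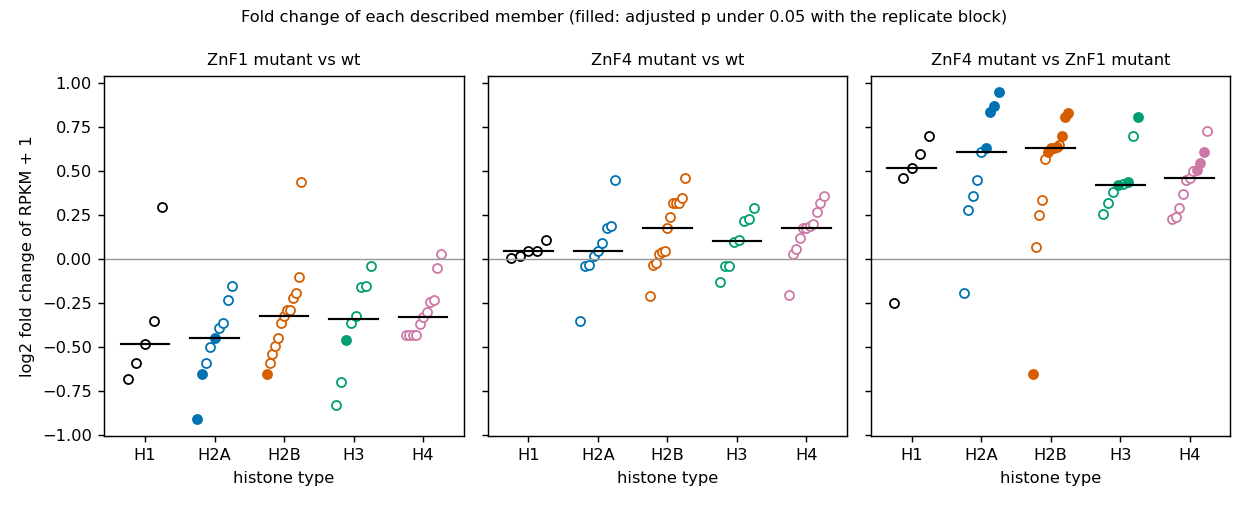
Each point is 1 of the 46 described histone genes, placed by type on the horizontal axis and by its log2 fold change of RPKM + 1 on the vertical axis, in 3 panels for the 3 comparisons. Black lines are the medians by type, and filled points have an adjusted p under 0.05 with the replicate block. Of the filled points, 5 lie below 0 in the left panel, none is in the middle panel, and 16 above 0 and 1 below 0 (Hist1h2bc) are in the right panel.

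No histone gene passed the test between the ZnF4 mutant and wt. In the ZnF4 mutant 36 members were higher (57% of all genes) and 10 lower (42.8%). The median log2 fold change of the members was 0.11 in a range from -0.35 to 0.46, beside a median of 0.04 over all genes. Without wt replicate 1 the counts were 28 higher and 17 lower, without wt replicate 2 they were 28 and 18, and without ZnF4 mutant replicate 2 they were 29 and 17. By type the median was 0.05 for H1 and H2A, 0.18 for H2B and H4 and 0.11 for H3. The test called 0 members without the block, where 2.72% of all genes were called, and 0 with it, where 15.9% were called (8.02% higher). At an unadjusted p under 0.05 without the block there were also 0 members, beside 11.7% of all genes. The lowest adjusted p of a member with the block was 0.059. The 9 tested granulocyte markers were all lower in the ZnF4 mutant than in wt (median -1.12), with none called. This direction rests on wt replicate 1: the granulocyte markers summed to 535.8 and 1.2 RPKM in wt and to 6.5 and 54.3 in the ZnF4 mutant. Their part in the histone values was not tested.

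That lowest value belonged to Hist3h2a, an H2A gene outside the main cluster, which was read at 4.1 and 3.8 RPKM in wt, 3.6 and 3.3 in the ZnF1 mutant and 3.1 and 2.7 in the ZnF4 mutant. Its log2 fold change was -0.35 (SE 0.15), and it was the 1 member whose groups did not overlap in the downward direction (13.8% of all genes). The next lowest fold changes were those of Hist1h2bc, at -0.21, and of the H4 gene Hist1h4j, at -0.20. Hist1h4j was read at 1 and 2.9 RPKM in wt, 0.6 and 1.7 in the ZnF1 mutant and 0.6 and 2.7 in the ZnF4 mutant, overlapping between all groups.

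The highest fold changes were those of Hist1h2bg at 0.46, Hist1h2ae at 0.45 and Hist1h4b at 0.36. The H2B gene Hist1h2bg was read at 8.2 and 5.2 RPKM in wt, 6.7 and 4.7 in the ZnF1 mutant and 8.8 and 10 in the ZnF4 mutant. Its neighbour Hist1h2ae, an H2A gene, was read at 3.9 and 2.2, 3.1 and 0.9, and 4.6 and 4.2 RPKM, and the H4 gene Hist1h4b at 1.9 and 2, 1.9 and 0.8, and 2.6 and 3. In all 3 genes both ZnF4 mutant libraries were above both wt libraries. That held for 9 members (17.8% of all genes), and 22 members were higher in replicate 1 and in replicate 2 (42.5% of all genes) while 3 were lower in both (31.1%).

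Set against each other, the mutants gave the most calls. In the ZnF4 mutant 43 members were higher than in the ZnF1 mutant (54.7% of all genes) and 3 lower (45.3%). The median log2 fold change of the members was 0.50 in a range from -0.65 to 0.95, beside 0.04 over all genes. The 3 lower became 9 without ZnF1 mutant replicate 1, 7 without ZnF1 mutant replicate 2 or ZnF4 mutant replicate 2, and 6 without ZnF4 mutant replicate 1. By type the median was 0.52 for H1, 0.61 for H2A, 0.63 for H2B, 0.43 for H3 and 0.46 for H4. Without the block the test called 1 member, Hist1h2ab, as higher (1.61% of all genes were called higher). With the block 16 members rose (15.9% of all genes were called higher) and 1 fell (19.2% were called lower). At an unadjusted p under 0.05 without the block there were 13 members, or 28.3%, beside 19.3% of all genes.

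For Hist1h2ab the ZnF1 mutant libraries had 4.9 and 4.4 RPKM and those of the ZnF4 mutant 8.6 and 9.6. Its log2 fold change was 0.84 (SE 0.15), with an adjusted p of 0.045 without the block and 0.0047 with it. It was not called without the block when any 1 library was left out, with adjusted p from 0.099 to 0.28 and fold changes from 0.77 to 0.91. Hist1h2ai (0.87, adjusted p 0.0063 with the block) and Hist1h2ak (0.63, 0.0083) also rose with the block, from 1.5 and 2.2 to 3.6 and 4.8 RPKM and from 5.3 and 6 to 8.3 and 10.3. For these 3 H2A genes the mutant groups did not overlap.

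The fourth H2A gene that rose was Hist1h2ae, with a log2 fold change of 0.95 (SE 0.41, adjusted p 0.035 with the block and 0.31 without). Without ZnF1 mutant replicate 2 its value was 0.40, and without ZnF1 mutant replicate 1 it was 1.51. It was the highest of the members at a pseudocount of 1, whereas at a pseudocount of 0.1 Hist1h3c (1.36) and Hist1h2bm (1.35) were above it (1.33). Of the H2B genes, Hist1h2bk, Hist1h2bb, Hist1h2bl, Hist2h2bb, Hist1h2bm and Hist1h2bn rose, with log2 fold changes from 0.61 to 0.83 and adjusted p from 0.013 to 0.039 with the block. Hist1h2bb was read at 3.3 and 2.3 RPKM in wt, 2.5 and 1.6 in the ZnF1 mutant and 3.9 and 3.5 in the ZnF4 mutant, and Hist1h2bl at 2.9 and 2.5, 2.2 and 1.6, and 3.5 and 3.9. Those 2 did not overlap between the mutants, and both of their ZnF4 mutant libraries were above all other libraries. Hist1h2bn was read at 6.6 and 2, 5.1 and 0.9, and 6.9 and 3.5 RPKM, and Hist1h2bm at 1.3 and 0.4, 0.8 and 0.2, and 1.5 and 1. Hist1h2bn overlapped between the mutants. Single libraries set the size of several of these values: without ZnF1 mutant replicate 2 the log2 fold change was -0.03 for Hist1h2bn, 0.13 for Hist1h2bk, 0.31 for Hist1h2bm and 0.42 for Hist1h2bb. Without ZnF1 mutant replicate 1 it was 0.09 for Hist2h2bb, 1.13 for Hist1h2bk and 1.65 for Hist1h2bn, and Hist2h2bb had 1.58 without ZnF1 mutant replicate 2. Without ZnF4 mutant replicate 1 it was 0.25 for Hist1h2bk and 0.40 for Hist1h2bn, and without ZnF4 mutant replicate 2 it was 1.01 for Hist1h2bk and 0.44 for Hist2h2bb.

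The remaining 6 that rose were 3 H3 genes and 3 H4 genes, and no H1 gene was called. Of type H3, Hist1h3i had a log2 fold change of 0.42, Hist1h3b of 0.44 and Hist1h3c of 0.81, with adjusted p from 0.024 to 0.029 with the block. Hist1h3b was read at 1.9 and 3.2 RPKM in wt, 1.8 and 2.5 in the ZnF1 mutant and 2.7 and 3.9 in the ZnF4 mutant. For all 3 the mutants did not overlap. Of type H4, Hist1h4f (0.55), Hist1h4h (0.61) and Hist4h4 (0.51) had adjusted p from 0.017 to 0.023 with the block. Hist1h4f was read at 2.3 and 1.8, 1.3 and 1.2, and 2.5 and 2.1 RPKM, and Hist1h4h at 3.2 and 2.5, 1.7 and 2, and 3.3 and 3.4. For these 2 both ZnF1 mutant libraries lay below the other 4. Without ZnF4 mutant replicate 2, Hist1h3b and Hist4h4 each had 0.24, and without ZnF1 mutant replicate 1 they had 0.28 and 0.33. Without ZnF4 mutant replicate 1 Hist4h4 had 0.78.

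Hist1h2bc was the member that fell, by 0.65 on the log2 scale (SE 0.24), with an adjusted p of 0.016 with the block and 0.23 without, and its value was -0.38 without ZnF1 mutant replicate 1. Hist1h1c (-0.25) and Hist3h2a (-0.19) were the other members with a negative fold change, and neither was called. In these 3 the mutant groups did not overlap in the downward direction (21.8% of all genes), and the same 3 were lower in both replicates (34.8% of all genes). In the upward direction 23 members did not overlap (21.7% of all genes), and 39 were higher in both replicates (41.2% of all genes). The 11 myeloid markers moved here as well: all were lower in the ZnF4 mutant, with a median log2 fold change of -1.49, and 7 of them fell without the block. Of the 9 tested stromal and endothelial markers 8 were lower (median -1.23), and without the block 3 fell and 1 rose. The 9 tested granulocyte markers were all lower (median -1.88), with none called. This direction rests on ZnF1 mutant replicate 2: the granulocyte markers summed to 3.5 and 1648.9 RPKM in the ZnF1 mutant and to 6.5 and 54.3 in the ZnF4 mutant. Their part in the histone values was not tested.

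**Figure D4:**
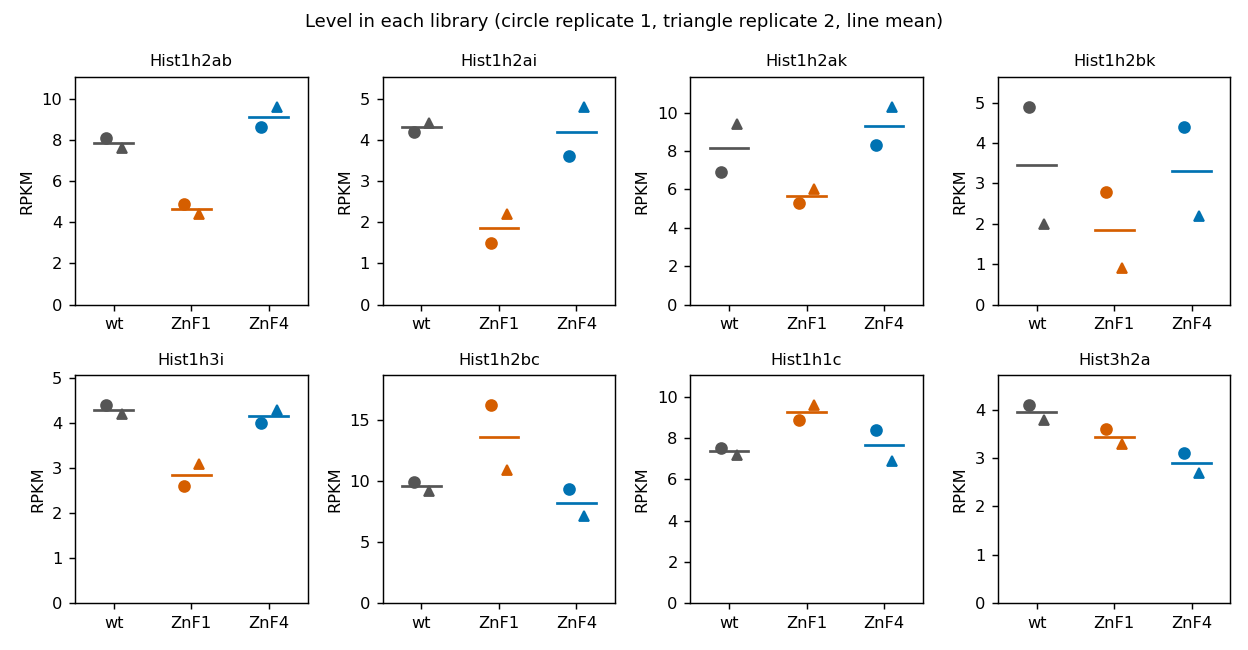
RPKM in each library of 8 histone genes, by group on the horizontal axis, with circles for replicate 1, triangles for replicate 2 and lines for group means. In Hist1h2ab, Hist1h2ai, Hist1h2ak and Hist1h3i both ZnF1 mutant libraries lie below the other 4, in Hist1h2bc and Hist1h1c both lie above the other 4, and in Hist3h2a both ZnF4 mutant libraries lie lowest.

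Of the 3 members that were not lower in the ZnF1 mutant than in wt, 2 belong to a short list of clustered genes that the literature names as having polyadenylated messages. That list was drawn up from general knowledge, but with earlier results of these data known, so it is not independent of them. It has 7 genes, all of them among the 46: Hist1h1c, Hist1h2bc, Hist1h2be, Hist2h2be, Hist3h2a, Hist1h4i and Hist4h4. For the 7 genes the highest library had 1.18 times the summed level of the lowest, at 35.6 and 36.7 RPKM in wt, 42.1 and 37 in the ZnF1 mutant and 36.1 and 36.2 in the ZnF4 mutant. The other 39 members summed to 181 and 211.7, 117.8 and 172.5, and 187.3 and 257.4 RPKM. For the 39, both ZnF1 mutant libraries lay below both wt libraries, and the highest library had 2.19 times the lowest.

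The median log2 fold change of the 7 was -0.10 in the ZnF1 mutant against wt, 0.05 in the ZnF4 mutant against wt and 0.07 between the mutants. For the 39 it was -0.43, 0.11 and 0.57 in the same order, and 38 of the 39 were lower in the ZnF1 mutant than in wt. Within the 7 the genes were not alike: Hist1h2bc and Hist1h1c had positive values in the ZnF1 mutant. Hist4h4 (-0.33) and Hist1h2be (-0.29) lay between the median of the 7 and that of the 39. Hist1h4i, which has both a stem-loop and a poly(A) signal, was read at 6.7 and 7.7 RPKM in wt, 7.5 and 6.4 in the ZnF1 mutant and 7.5 and 9.3 in the ZnF4 mutant, overlapping between wt and both mutants. Hist2h2be was read between 1.8 and 2.2 RPKM in every library. No test of the 7 against the 39 was run.

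**Figure D5:**
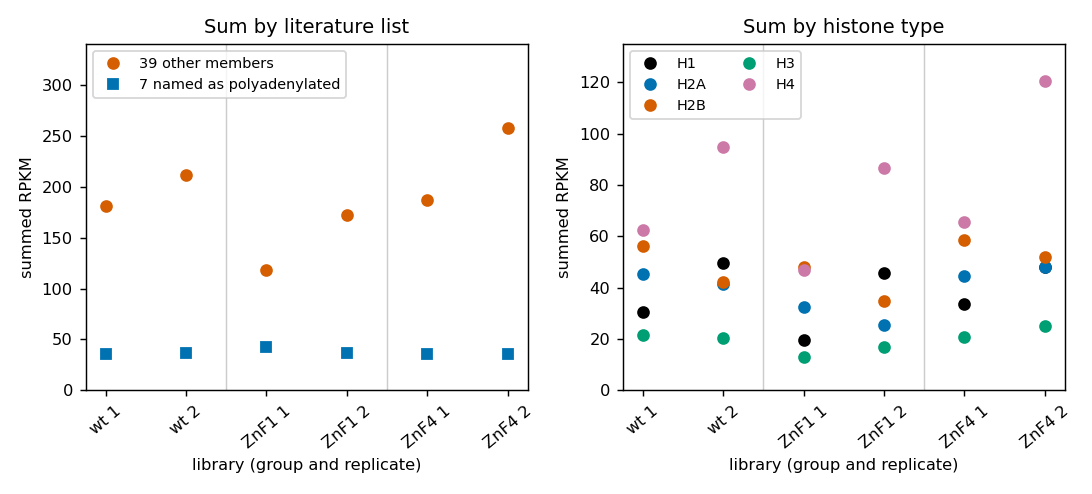
Summed RPKM in each of the 6 libraries, on the left for the 7 members that the literature names as polyadenylated and for the other 39, and on the right for the 5 histone types. The 7 lie between 35.6 and 42.1 in all libraries, while the 39 run from 117.8 in ZnF1 mutant replicate 1 to 257.4 in ZnF4 mutant replicate 2.

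Split by sequence, the difference was smaller. The 12 members with a poly(A) signal at the end of the transcript had a median log2 fold change of -0.22 in the ZnF1 mutant against wt and of 0.27 between the mutants, and the 34 without had -0.41 and 0.58. The 34 include the 13 members whose transcript ends under 60 bases after the stop codon, for which a missing signal says nothing. By the length of the RefSeq model in the table, the 23 genes whose model holds the coding part alone had medians of -0.37 and 0.51. The 6 genes with a model of at least 1500 bases had medians of -0.22 and 0.21. Genes outside the clusters with short models, under 600 bases, had medians of -0.06 and 0.19 over 396 genes.

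Promoters were looked at for letters that the members share. RefSeq promoter windows (250 bases before to 50 after the start, GRCm38.p6) were found for 42 of the 46 members. The letters CCAAT, on either strand, were in 35 of them (83.3%, beside 37.4% of 32851 promoters), and TATAAA, on either strand, in 24 (57.1%, beside 13.6%). The letters AAACACA, a motif of H1 promoters, were on either strand in 6 (14.3%, beside 7.18%), of which 4 were promoters of the 5 H1 genes. CCAAT was in 3 of 10 H4 promoters and in all 5 H1, 9 H2A, 11 H2B and 7 H3 promoters. The 250 bases before the start are shown for Hist1h2ab, the member called in the unblocked test, and for Hist1h1c, which had the opposite sign, with these motifs in capitals. Both lie on the plus strand, at chr13:23750838-23751087 for Hist1h2ab and chr13:23738557-23738806 for Hist1h1c.
Hist1h2ab: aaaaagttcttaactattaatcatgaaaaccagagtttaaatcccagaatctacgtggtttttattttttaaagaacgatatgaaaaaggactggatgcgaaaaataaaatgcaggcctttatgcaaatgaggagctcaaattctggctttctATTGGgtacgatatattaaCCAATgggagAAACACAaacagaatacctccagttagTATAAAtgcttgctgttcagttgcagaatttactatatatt
Hist1h1c: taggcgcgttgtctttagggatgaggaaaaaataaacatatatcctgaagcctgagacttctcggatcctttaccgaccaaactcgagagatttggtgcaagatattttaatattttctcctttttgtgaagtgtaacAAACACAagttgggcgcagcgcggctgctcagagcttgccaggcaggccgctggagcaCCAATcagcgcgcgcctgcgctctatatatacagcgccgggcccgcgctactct
Hist1h2ab holds CCAAT in both orientations, TATAAA and AAACACA, and Hist1h1c holds CCAAT and AAACACA and no TATAAA. A match describes the letters and is no evidence of a bound factor.

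Many H2A and H2B genes are transcribed away from each other from a shared stretch. Among the members, 6 such pairs have starts within 1000 bases, from 176 to 302 bases apart. In each pair both genes had a negative fold change in the ZnF1 mutant against wt, as had 43 of all 46 members, so this is not particular to pairs. The replicates often split a pair. On the log2(RPKM + 1) scale Hist1h2ak was higher in replicate 2 by 0.40, 0.15 and 0.28 in wt, the ZnF1 mutant and the ZnF4 mutant. Its partner Hist1h2bn differed by -1.34, -1.68 and -0.81. Hist1h2ah (0.26, 0.31 and 0.25) and Hist1h2bk (-0.98, -1.0 and -0.75) did the same.

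Genes that act on histones were counted for context. The directions below stand beside those of all genes tested, of which 52.3% were lower in the ZnF1 mutant than in wt. In the ZnF4 mutant 57% of all genes were higher than in wt and 54.7% higher than in the ZnF1 mutant. Of 10 tested replacement histone genes, whose messages are polyadenylated for the most part, 8 were lower in the ZnF1 mutant than in wt, with a median log2 fold change of -0.14, and 1 was called. That gene was H1f0, a linker histone of differentiated cells, read at 22.3 and 24.9 RPKM in wt, 9.4 and 12 in the ZnF1 mutant and 35.7 and 31.3 in the ZnF4 mutant. Its groups did not overlap: it fell by 1.08 on the log2 scale in the ZnF1 mutant against wt (adjusted p 0.013 with the block and 0.10 without) and was 1.57 higher in the ZnF4 than in the ZnF1 mutant (0.0021 with the block and 0.020 without).

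A list of 34 genes of histone message processing and decay also held Npat, Hinfp, Cdk2, Ccne1 and Ccne2, which act on transcription or the cell cycle instead. Of the 34, 28 were lower in the ZnF1 mutant than in wt and none was called with the block. Between the mutants 30 of the 34 were higher in the ZnF4 mutant, with a median of 0.18, and 8 rose and 1 fell with the block, beside 15.9% and 19.2% of all genes. Slbp, which binds the stem-loop, was among those that rose, at 39.8 and 41.1 RPKM in wt, 33.9 and 29.4 in the ZnF1 mutant and 42.8 and 49.9 in the ZnF4 mutant (log2 fold change 0.54, adjusted p 0.022 with the block and 0.15 without). Lsm10, a protein of the U7 particle, rose in the ZnF4 mutant against both other groups with the block (0.29 against wt, adjusted p 0.046 with the block and 1.0 without, and 0.26 against the ZnF1 mutant, 0.036 and 0.74). The others that rose between the mutants were Cstf2t, Ncbp1, Eri1, Ccne1, Ccne2 and Rdbp, with log2 fold changes from 0.29 (Ncbp1 and Cstf2t) to 0.50 (Ccne2), and Zcchc6 (-0.39) fell. Against wt, Lsm10, Ccne1 (0.36) and Rdbp (0.30) rose with the block in the ZnF4 mutant. Its partner Lsm11 (0.30, 0.063) and Npat, which activates histone genes in S phase (0.21, 0.071), were not called between the mutants. Of 21 histone chaperone genes 19 were lower in the ZnF1 mutant than in wt with none called, and 11 rose in the ZnF4 against the ZnF1 mutant with the block (15.9% of all genes). Nasp, a chaperone of H3, H4 and H1, was among the 11, at 70.3 and 69.2 RPKM in wt, 57.7 and 43.5 in the ZnF1 mutant and 83.7 and 95.4 in the ZnF4 mutant (0.82, adjusted p 0.014 with the block and 0.080 without). The other 10 were Asf1b, Chaf1a, Chaf1b, Rbbp7, Hira, Hjurp, Ipo4, Hat1, Nap1l1 and Supt16h, with log2 fold changes from 0.26 (Chaf1b) to 0.63 (Hat1).

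The S phase genes, which stand for DNA replication itself, were lower in the ZnF1 mutant than in wt in 24 of 26 cases, with a median of -0.13. One of them, Tyms, fell with the block. All 26 were higher in the ZnF4 mutant than in wt (median 0.29, 8 called with the block beside 8.02% of all genes) and higher than in the ZnF1 mutant (median 0.38, 22 called with the block beside 15.9%), and none was called without the block. Tyms, the enzyme that makes thymidylate, was read at 11.9 and 7 RPKM in wt, 7.8 and 4.4 in the ZnF1 mutant and 21.6 and 15.3 in the ZnF4 mutant. The 8 that rose against wt were Tyms (0.92), Tk1 (0.74), Cdt1 (0.51), Gins1 (0.47), Rpa2 (0.42), Rfc4 (0.38), Fen1 (0.34) and Pola1 (0.33). Between the mutants all of the 26 but Mcm7, Rfc5, E2f1 and Uhrf1 rose with the block, from 0.29 for Mcm4 to 1.48 for Tyms. Against wt the ZnF4 mutant thus had a higher median for S phase genes (0.29) than for the clustered histone genes (0.11), and the ZnF1 mutant a lower median for the histone genes (-0.36) than for S phase genes (-0.13). These medians were not tested against each other. Most of the histone genes were low, and the log2(RPKM + 1) scale shrinks changes of low genes. With a pseudocount of 0.1 the histone medians were 0.15 in the ZnF4 mutant and -0.54 in the ZnF1 mutant against wt.

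Of RNAs that carry no poly(A) tail, 4 of the 10 looked for were in the table and 3 were tested. Rmrp was read at 35.4 and 27.8 RPKM in wt, 20.6 and 22.8 in the ZnF1 mutant and 36.3 and 34.6 in the ZnF4 mutant. Rpph1 was read at 81.2 and 42.6, 103.5 and 29.1, and 53.6 and 26.5 RPKM. Rmrp was lower in both ZnF1 mutant libraries than in the other 4, while Rpph1 was higher in replicate 1 of each group. The 3 tested had fold changes below 0 in the ZnF1 mutant against wt, and Rmrp rose between the mutants (0.68, adjusted p 0.015 with the block and 0.10 without).

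Among the 11299 tested genes outside the clusters, those whose log2(RPKM + 1) over the 6 libraries was most like the mean of the 46 members were Lig3 (Pearson r = 0.9944), Mthfd1 (0.9901), Thrb (0.9899), Rnps1 (0.9888) and Ehmt1 (0.9861). Lig3, a DNA ligase, was read at 20.3 and 19.6 RPKM in wt, 15.9 and 16.3 in the ZnF1 mutant and 21 and 21.4 in the ZnF4 mutant. With 6 libraries and this many genes, such values describe the libraries and carry no test.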

How the data were processed

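Polyadenylated RNA was sequenced from 6 cultures in 3 groups, with groups and replicate numbers taken from the sample titles. The deposited values are RPKM per RefSeq transcript, written to 1 decimal by the authors per the file headers, and were made with TopHat and bedtools on the build mm9 per the submitters' processing notes. Versions, strand use and the counting of shared reads are not given in the sources used here. Of 26532 rows, 1 names no gene and was left out. The other 26531 were summed to 22099 genes, after 39 of 40 symbols that had been turned into numbers were restored. Genes reaching 1 RPKM in 2 or more libraries (11345) were tested with limma 3.58.1 (R 4.3.3, mean trend, 2-sided) on log2(RPKM + 1), over all 6 libraries, and checked on simulated data. The depth per library is unknown.

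The members and gene lists were chosen with earlier results of these data known. Named members are the 2 highest of each type and cluster, all that were called, and the 3 largest rises and falls of each comparison. Named context genes are those called in either fit, and Slbp, Npat, Lsm10, Lsm11 and Nasp. Replicate numbers were taken to pair the libraries because libraries of the same number deviated from their groups in like manner over genes, with r = 0.50 for wt and the ZnF1 mutant, 0.754 for wt and the ZnF4 mutant and 0.715 for the mutants. Alternatives were the replicate block, pseudocounts, filters, scaling, 4-library fits and leaving out each library. RefSeq and GENCODE M21 gave sequences in GRCm38, and no coordinates were converted from mm9.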

Additional observations from a re-analysis of the deposited data

How the results depend on the processing

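The fit with the replicate block, which pairs same-numbered libraries, raised the genes called from 0 to 1502 in the ZnF1 mutant against wt, from 309 to 1809 in the ZnF4 mutant against wt and from 609 to 3979 between the mutants, and the histone genes called from 0 to 5, from 0 to 0 and from 1 to 17. At a filter of 5 RPKM, where 15 of the genes are tested, the fit with the block called 2 histone genes in place of the 5 and 7 in place of the 17. These are counts at each setting and not the same genes: some of the 17, such as Hist1h2ai and Hist1h2bk, are not tested at that filter. Without the block the counts were 0 and 1. Leaving out 1 library, the 5 became 0 to 3 (0 without wt replicate 1, wt replicate 2 or ZnF1 mutant replicate 1) and the 17 became 2 to 14 (2 without ZnF4 mutant replicate 2, 11 without ZnF4 mutant replicate 1). The cause was not tested.

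Without the block, the 1 histone gene called between the mutants became 0 with no filter, at 5 RPKM, with libraries scaled to the same sum, in the 4 libraries of the comparison and without any 1 library. The genes called became 1 in the ZnF1 mutant against wt with scaling to the same sum, 176 (5 RPKM) and 131 (4 libraries) in the ZnF4 mutant against wt, and 323 and 324 between the mutants. Without 1 library they numbered 0 to 119 and 0 to 306 in the last 2 comparisons, and 0 in the first.

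The median log2 fold change of the histone genes kept its sign in all alternatives run. In the ZnF1 mutant against wt it was -0.54 with a pseudocount of 0.1, -0.45 with 0.5, and -0.37 to -0.34 without 1 library. In the ZnF4 mutant against wt it was 0.18 at 5 RPKM and 0.07 to 0.18 without 1 library. Between the mutants it was 0.67 and 0.56 with those pseudocounts, 0.44 with no filter, 0.60 at 5 RPKM and 0.40 to 0.56 without 1 library. Single members were followed only in the comparisons where either fit called them. Of the 316 values under alternatives that this gave, 1 changed sign. It was that of Hist1h2bn between the mutants, at -0.03 without ZnF1 mutant replicate 2, in a range up to 1.65 without ZnF1 mutant replicate 1. Members not called were not followed, and the counts of higher and lower members given above show further changes of sign. Values given to 1 decimal limit what can be said of members near 1 RPKM.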
